A study of Mus musculus with 6 samples.

Results

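The genes described here are 10 niche factors and stromal markers of bone marrow: Cxcl12, Kitl, Angpt1, Il7, Csf1 and Spp1 among secreted factors, Lepr, Pdgfra and Pdgfrb among receptors that mark stromal cells, and Vcam1, an adhesion molecule. Members were every probe set to which the array's annotation gives exactly 1 symbol, that symbol being one of these 10. This gave 27 probe sets of 9 genes, of 45037 probe sets and 18193 genes in all. No probe set carried Spp1 as its symbol, so Spp1 is not analysed here. Marrow came from adult female F1 mice: 3 arrays hold (AKR/J x FVB/NJ)F1 marrow (AKR F1) and 3 hold (DBA/2J x FVB/NJ)F1 marrow (DBA F1). Both groups carry 1 FVB/NJ genome, so they differ in the other parent, and no treatment beyond Avertin anaesthesia is given for either. The series asks which genes differ in basal level between the genotypes. The labels do not tie arrays to separate animals, so the spread that p-values rest on may be technical.

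Blood stem and progenitor cells live among perivascular stromal cells of the marrow, often called CXCL12-abundant reticular or leptin receptor-positive cells. These cells secrete CXCL12, which retains stem cells and B cell precursors through the receptor CXCR4, and stem cell factor (Kitl), which acts through KIT. They also make interleukin 7 for early B cells, macrophage colony-stimulating factor (Csf1) for monocytes and osteoclasts, and angiopoietin 1, a ligand of the receptor TEK. Stromal cells are a small part of whole marrow. In bulk tissue, fewer cells of a type and less RNA per cell cannot be told apart.

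Values are log2 expression values, each difference is the AKR F1 mean less the DBA F1 mean, and SE is the standard error of limma's fit. A probe set passed the test at a limma p under 0.05 after Benjamini-Hochberg adjustment over all 45037. Probe sets of different sequence respond differently, so levels are compared between arrays and not between probe sets. The probe sets of a gene are called the brightest, the second and so on by their mean over the 6 arrays, only to tell them apart, and the plot of differences gives their identifiers in that order. In the reference gene table (GRCm38.p6), Cxcl12 lies on chromosome 6, Kitl on 10, Lepr on 4, Angpt1 on 15, Pdgfra on 5, Pdgfrb on 18, and Vcam1, Il7 and Csf1 on 3. Sequence differences between the strains at the probes were not analysed here. Of the 27 member probe sets, 9 lay above the upper quartile of every array and 1 lay below the lower quartile of every array.

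Several stromal markers were lower in AKR F1 marrow, at some of their probe sets only. Of the 27 probe sets, 6 fell (in Lepr, Angpt1, Pdgfra and Vcam1), 2 rose (in Il7 and Csf1) and 19 did not pass. The 6 falls lay between -1.30 and -0.63. The share past the test was 29.6%, against 12.3% of all probe sets (5.57% higher and 6.73% lower) and 21.1% of those above the median level in the same fit. The median difference of the members was -0.16, against 0.03 over all probe sets. The difference was negative in 16 of 27, against 43.4% of all probe sets. The groups did not overlap in 12 member probe sets, against 33% of all: AKR F1 lay below DBA F1 in 10 and above it in 2, while over all probe sets this held for 14.9% and 18.1%. By the brightest probe set of each gene alone, adjusted over genes, 2 of 9 genes passed (Pdgfra lower and Il7 higher), against 15.2% of all genes. Without AKR F1 replicate 2 or DBA F1 replicate 2 the count past the test fell from 8 to 3, and without AKR F1 replicate 3 or DBA F1 replicate 3 to 2.

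**Figure D1:**
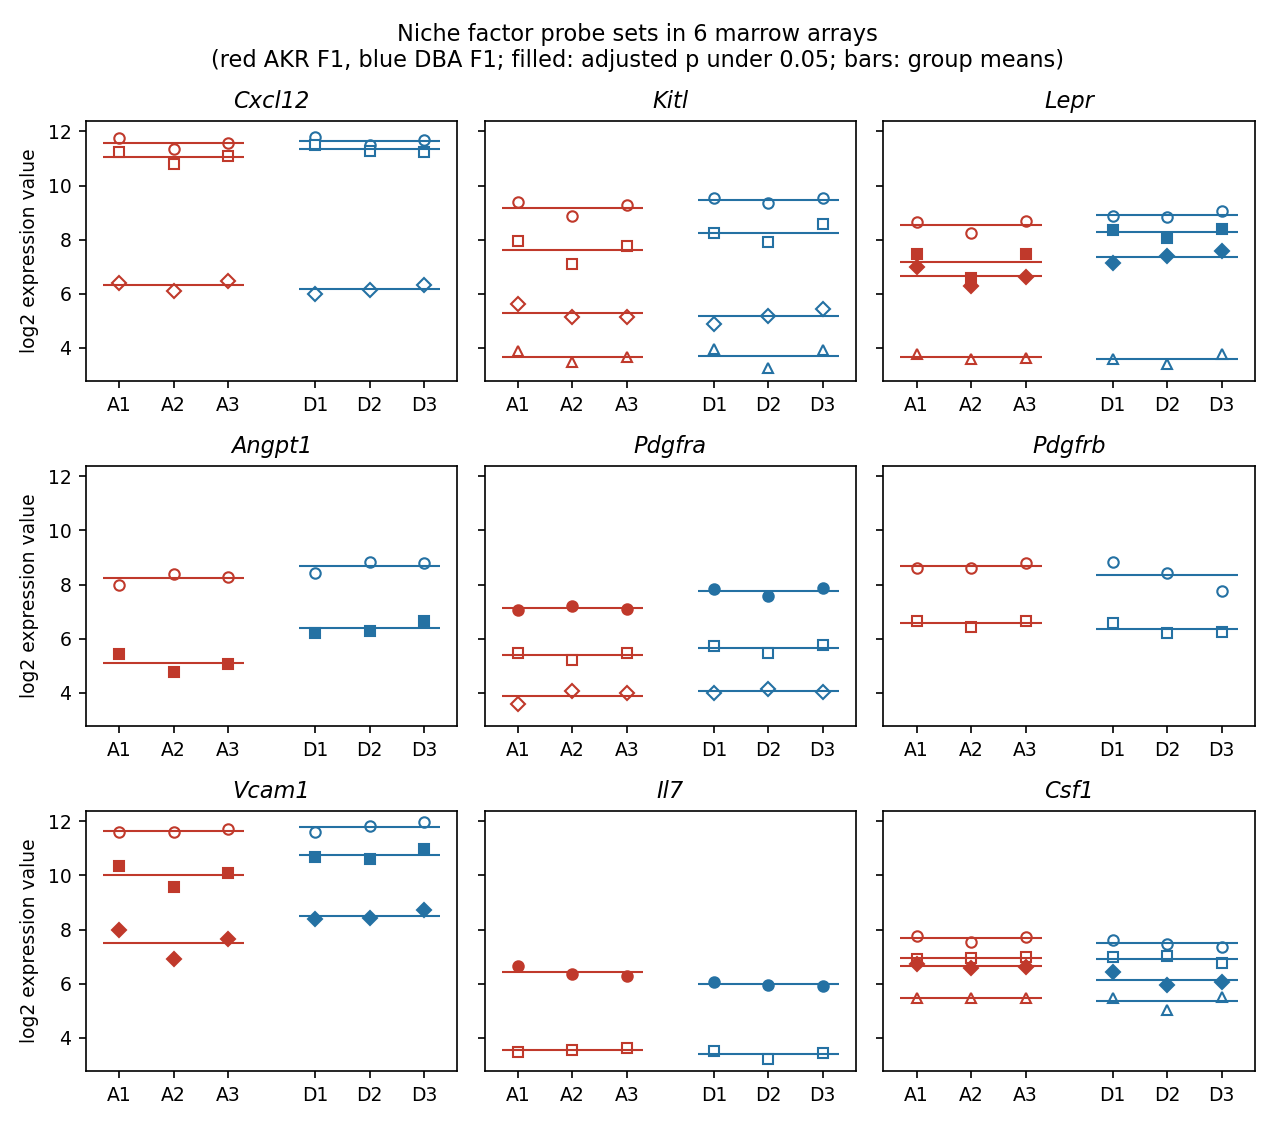
Log2 expression values of the 27 member probe sets, 1 panel per gene, with AKR F1 replicates 1 to 3 (A1 to A3) and DBA F1 replicates 1 to 3 (D1 to D3) on the x axis; each symbol shape is 1 probe set, horizontal bars are group means and filled symbols passed the limma test. The filled symbols of Lepr, Angpt1, Pdgfra and Vcam1 lie lower in AKR F1, and those of Il7 and Csf1 lie higher.

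Cxcl12, the chemokine that gives these reticular cells their name, did not pass at any of 3 probe sets. At the brightest it was at 11.76, 11.34 and 11.58 in AKR F1 and at 11.79, 11.50 and 11.68 in DBA F1. The groups overlapped, and the difference was -0.10 (SE 0.13, 95% interval -0.40 to 0.20, limma adjusted p = 0.68). At the second the AKR F1 arrays, from 10.78 to 11.25, all lay below the DBA F1 arrays, from 11.25 to 11.49, by a narrow margin. That difference was -0.30 (SE 0.14, limma adjusted p = 0.20), and the third probe set differed by 0.17. The 95% interval at the second probe set ran from -0.61 to 0.01, so a lower level in AKR F1 was neither shown nor excluded with 6 arrays.

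A pair of upstream windows shows the sequence in front of Cxcl12 and Csf1. They were chosen because each window ends just before the gene's first annotated base, and Csf1 was among the genes that rose while Cxcl12 did not pass. Each is the 250 bases before the start, 5′ to 3′ on the gene's strand, from RefSeq's GRCm38.p6 sequence. Capitals mark the GC box GGGCGG and the core CCCNNGGG of the motif bound by early B cell factors, on either strand.
Cxcl12, chr6:117168285-117168534, plus strand: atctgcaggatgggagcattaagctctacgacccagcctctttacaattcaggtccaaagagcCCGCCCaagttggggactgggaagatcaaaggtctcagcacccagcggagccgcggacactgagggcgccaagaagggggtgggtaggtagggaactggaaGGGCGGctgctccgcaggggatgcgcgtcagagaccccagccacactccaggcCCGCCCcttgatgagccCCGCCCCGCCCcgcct
Csf1, chr3:107760470-107760719, minus strand: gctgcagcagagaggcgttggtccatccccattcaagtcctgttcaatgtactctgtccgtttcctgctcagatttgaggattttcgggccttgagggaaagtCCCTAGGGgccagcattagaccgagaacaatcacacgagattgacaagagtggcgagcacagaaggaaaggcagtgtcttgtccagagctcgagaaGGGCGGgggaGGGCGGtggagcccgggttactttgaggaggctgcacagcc

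The Cxcl12 window held 5 matches to the GC box and none to the other core, and the Csf1 window held 2 and 1. Of 32851 windows of the same length, 32.7% held a GC box and 11.8% held CCCNNGGG. For the 10 genes, 8 windows of 6 genes were searched. Windows on chromosome 18, where Pdgfrb lies, were left out of those. The Kitl window held 3 GC boxes, the Lepr windows 0 and 1, and those of Pdgfra and Spp1 none. Among the 8 windows, the printed ones thus held the most GC boxes (Cxcl12) and the only CCCNNGGG (Csf1). The matches describe letters and not binding.

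Kitl, the ligand of KIT on stem and progenitor cells, did not pass either. At its second probe set it was at 7.97, 7.09 and 7.77 in AKR F1 and at 8.25, 7.92 and 8.57 in DBA F1. AKR F1 replicate 2 was the lowest array and replicate 1 lay just above the lowest DBA F1 array, so the groups overlapped. The difference was -0.64 (SE 0.24, limma adjusted p = 0.13). At the brightest it was -0.30 (SE 0.14, limma adjusted p = 0.20), with AKR F1 from 8.88 to 9.38 and DBA F1 from 9.37 to 9.56. The other 2 probe sets differed by 0.11 and -0.03 and did not pass.

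Angpt1, which acts on the receptor TEK of endothelial and stem cells, showed the largest difference among the members. At its dimmer probe set it was at 5.45, 4.77 and 5.05 in AKR F1 against 6.23, 6.28 and 6.67 in DBA F1. The groups were clearly apart, with a 2.46-fold higher level in DBA F1 (log2 difference -1.30, with SE 0.19 and limma adjusted p = 0.0065). This probe set passed in each of the 6 fits lacking 1 array. At the brighter one the AKR F1 arrays lay at 8.0, 8.39 and 8.30 and the DBA F1 arrays at 8.41, 8.85 and 8.80. Here too the groups did not overlap, but the difference of -0.46 did not pass (SE 0.15, limma adjusted p = 0.085). It passed without DBA F1 replicate 1 (-0.60, limma adjusted p = 0.030).

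Il7 and Csf1, both growth factors that stroma supplies to blood cells, were the members that rose. Il7, which early B cells need, was at 6.65, 6.34 and 6.30 in AKR F1 and at 6.06, 5.94 and 5.93 in DBA F1 at its brighter probe set. All AKR F1 arrays were higher, by 0.45 on the log2 scale or 1.37-fold (SE 0.11, limma adjusted p = 0.037). The second Il7 probe set lay below the lower quartile of every array, from 3.21 to 3.64, and differed by 0.17. Csf1 was at 6.72, 6.60 and 6.61 in AKR F1 against 6.44, 5.95 and 6.05 in DBA F1 at the third of its probe sets. The groups did not overlap, and Csf1 was 1.41-fold higher (difference 0.50, SE 0.13, limma adjusted p = 0.046). The remaining 3 probe sets of Csf1 did not pass, with differences of 0.19, 0.03 and 0.13. Among the 6 fits lacking 1 array, the Il7 and Csf1 probe sets each passed only without DBA F1 replicate 1. Their highest adjusted p was 0.10 for Il7, without DBA F1 replicate 2, and 0.13 for Csf1, also without DBA F1 replicate 2, both in limma.

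Lepr, the leptin receptor that marks most perivascular stromal cells of adult marrow, was lower in AKR F1 at 2 of 4 probe sets. At the second it was at 7.47, 6.60 and 7.47 in AKR F1 and at 8.35, 8.08 and 8.41 in DBA F1. Every AKR F1 array lay below every DBA F1 array, and DBA F1 was 2.14-fold higher (difference -1.10, SE 0.23, limma adjusted p = 0.020). At the third the values were 7.00, 6.28 and 6.64 against 7.15, 7.38 and 7.58, again without overlap (difference -0.73, SE 0.19, limma adjusted p = 0.039). At the brightest the groups lay apart as well, at 8.66, 8.23 and 8.70 against 8.89, 8.83 and 9.07. That difference of -0.40 did not pass (SE 0.14, limma adjusted p = 0.11). The fourth was near the lower quartile of the arrays and differed by 0.09. The first call was lost without DBA F1 replicate 3 (limma adjusted p = 0.055), and the second without AKR F1 replicate 2 or 3 or DBA F1 replicate 2 or 3 (limma adjusted p from 0.099 to 0.12).

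Pdgfra, the platelet-derived growth factor receptor alpha of mesenchymal progenitors, had the most even values within AKR F1 among the probe sets that fell. At the brightest of its 3 probe sets it was at 7.07, 7.20 and 7.12 in AKR F1 and at 7.84, 7.56 and 7.88 in DBA F1. The groups did not overlap, and DBA F1 was 1.55-fold higher (difference -0.63, SE 0.11, limma adjusted p = 0.011). The call was lost without AKR F1 replicate 3 (limma adjusted p = 0.052) and held in the other 5 fits lacking 1 array. At the second the difference was -0.28 (SE 0.12, limma adjusted p = 0.17), also without overlap, and at the third, a dim one, it was -0.16.

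Pdgfrb, the beta receptor of pericytes and other mural cells, went the other way in sign but did not pass. At its brighter probe set it was at 8.62, 8.61 and 8.79 in AKR F1 and at 8.83, 8.43 and 7.78 in DBA F1, where replicate 3 was far below replicates 1 and 2. The difference was 0.32 (SE 0.23, 95% interval -0.21 to 0.85, limma adjusted p = 0.42). At the other it was 0.22 (SE 0.13, limma adjusted p = 0.31).

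Vcam1, which holds blood cells to stroma and endothelium through the integrin of Itga4 and Itgb1 and is also made by marrow macrophages, fell at 2 of 3 probe sets. At the third it was at 7.97, 6.92 and 7.64 in AKR F1 and at 8.39, 8.43 and 8.72 in DBA F1. The groups did not overlap, with DBA F1 2.00-fold higher (difference -1.0, SE 0.24, limma adjusted p = 0.033). At the second the values were 10.36, 9.58 and 10.10 against 10.67, 10.60 and 10.97 (difference -0.73, SE 0.20, limma adjusted p = 0.045). At the brightest Vcam1 was at 11.61, 11.60 and 11.71 against 11.61, 11.83 and 11.96, where the groups overlapped and the difference was -0.16 (95% interval -0.41 to 0.09, limma adjusted p = 0.39). Among the 6 fits lacking 1 array, the third probe set passed in 2, those without AKR F1 replicate 1 or DBA F1 replicate 1. The second passed in 1, that without AKR F1 replicate 1, and its limma adjusted p rose to 0.11 without DBA F1 replicate 3.

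**Figure D2:**
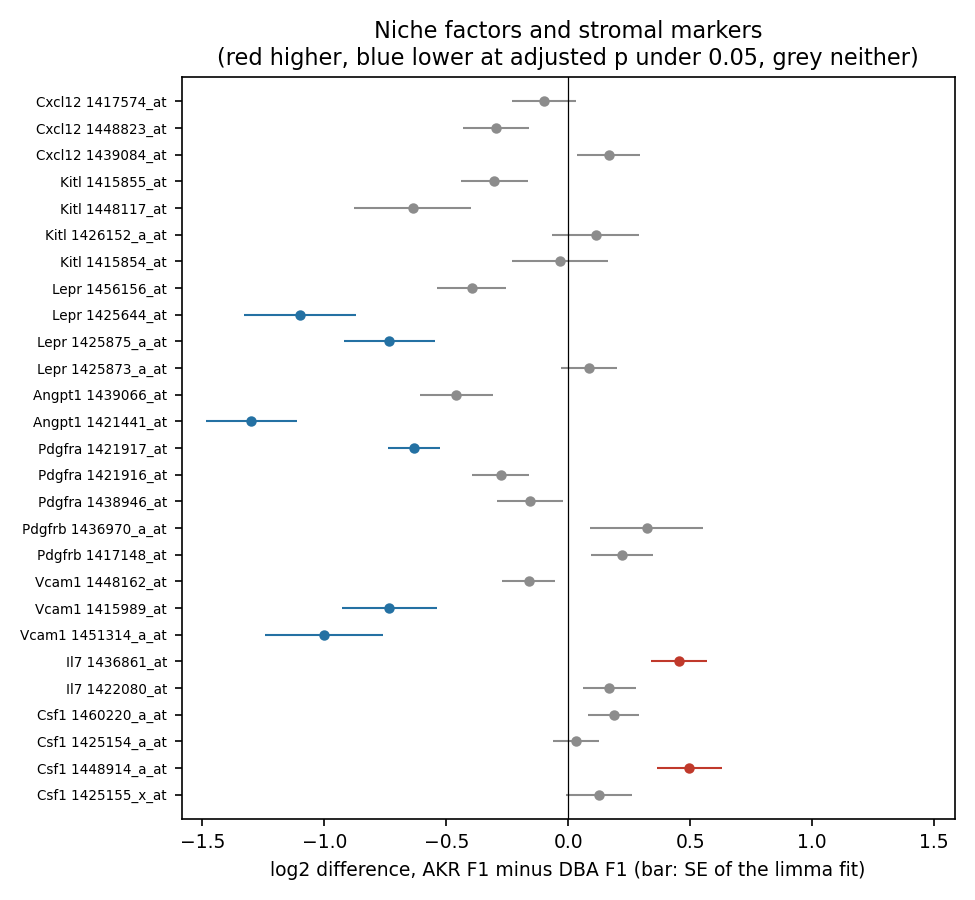
Log2 difference (AKR F1 minus DBA F1, x axis) of each member probe set with the SE of the limma fit as bars; blue points were lower and red points higher at an adjusted p under 0.05, and grey points did not pass. Within a gene the probe sets run from the brightest down and carry their identifiers. The blue points lie between -1.30 and -0.63, and probe sets of 1 gene often lie far apart, as in Vcam1 from -1.0 to -0.16.

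The size of the difference depended on the probe set, and an index of 3′ bias in the control transcripts also differed between the groups. The 3′ minus 5′ index is the mean log2 gap between 3′ and 5′ probe sets of 6 control transcripts (actin, Gapdh and 4 poly-A spikes), and it is larger where less of the 5′ part was labelled. It was 1.66, 2.22 and 2.08 in AKR F1 and 1.44, 1.54 and 1.45 in DBA F1. In Vcam1 the gap between the brightest and the third probe set was 3.63, 4.68 and 4.07 in AKR F1 and 3.21, 3.41 and 3.24 in DBA F1. The gap thus ordered the 6 arrays exactly as the index did. In Angpt1 the gap between its probe sets was 2.55, 3.62 and 3.25 against 2.19, 2.57 and 2.13, with AKR F1 replicates 2 and 3 the largest there too. In Lepr the gap between the brightest and the second was 1.20, 1.64 and 1.23 against 0.54, 0.75 and 0.66.

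Pdgfra did not follow that order. There the gap between the brightest and the second was smaller in AKR F1, at 1.59, 1.99 and 1.65 against 2.11, 2.07 and 2.12. Over the 14 gaps between a member gene's brightest probe set and its others above the median level, AKR F1 lay above DBA F1 in 4, below in 2 and overlapped it in 8. AKR F1 replicate 2, the array with the highest index, was the lowest of the 3 AKR F1 arrays in 20 of 27 member probe sets (74.1%), against 31.6% of all probe sets. Positions of the probe sets along the transcripts were not analysed here.

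**Figure D3:**
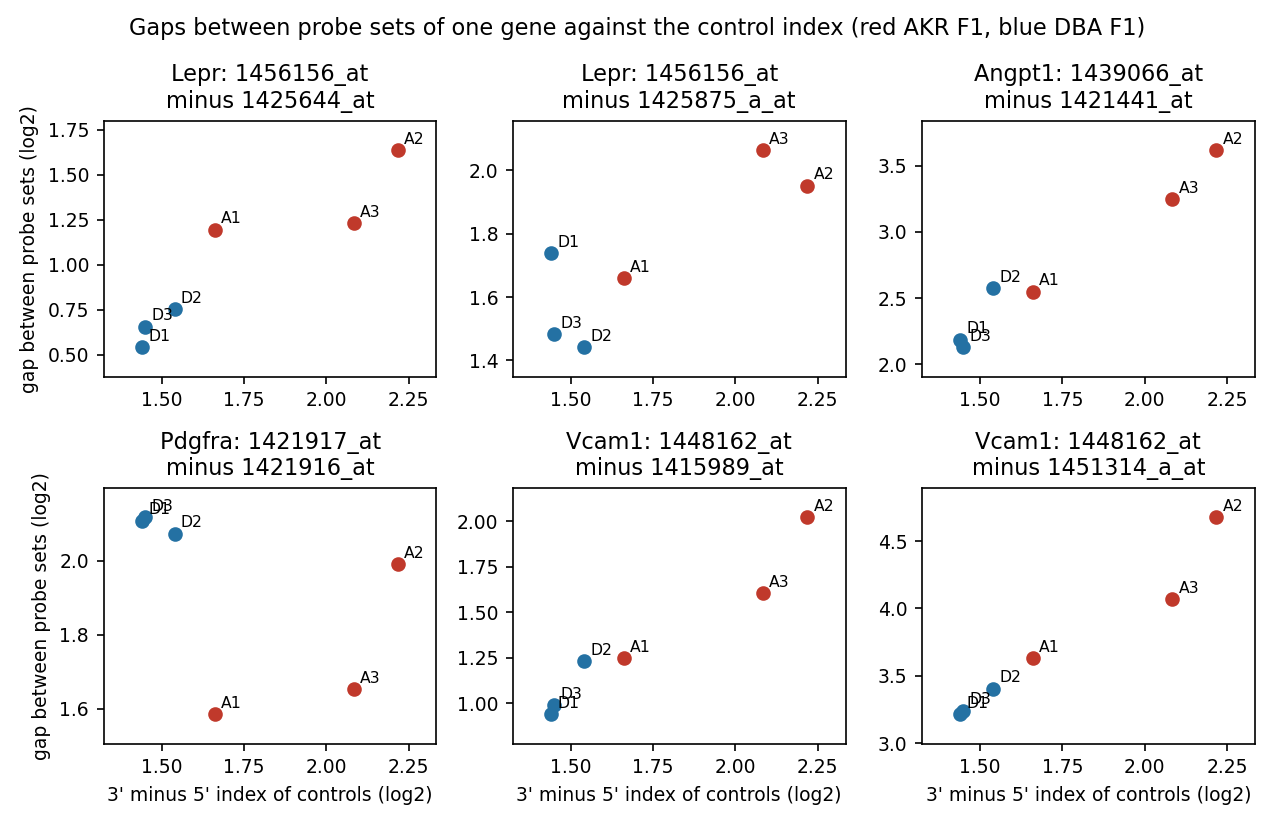
Gap in log2 value between 2 probe sets of 1 gene (y axis) against the 3′ minus 5′ index of control transcripts (x axis), 1 point per array (red AKR F1, blue DBA F1). The Vcam1 and Angpt1 gaps are largest in A2 and A3, the arrays with an index of 2.22 and 2.08, while the Pdgfra gap is smaller in AKR F1.

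With this index as a covariate none of the 27 member probe sets passed, and 53 of all probe sets did. The 8 that had passed kept their sign, and their SE rose to a median of 1.39 times its value. The differences of Vcam1 moved from -1.0 to -0.18 (SE 0.28) at the third probe set and from -0.73 to -0.10 (SE 0.25) at the second. Those of Lepr moved from -1.10 to -0.46 (SE 0.33) and from -0.73 to -0.15 (SE 0.25), and that of Angpt1 at its dimmer probe set from -1.30 to -0.70 (SE 0.24). Pdgfra at its brightest was at -0.68 (SE 0.21), while Il7 and Csf1 were at 0.77 (SE 0.17) and 0.67 (SE 0.24). Since the index does not overlap between the groups, genotype and the 3′ bias that the index measures cannot be told apart in this design. The hybridization controls, spiked in after labelling, also separated the groups, at 9.74 to 9.95 in AKR F1 and 10.27 to 10.72 in DBA F1, and no member passed with their mean as a covariate.

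The partners of these factors, 21 measured genes of ligands and receptors, moved in both directions. Of their 50 probe sets 4 rose in AKR F1 and 7 fell, while 39 did not pass, with a median difference of 0.03. The share past the test was 22%, against 12.3% of all probe sets. It was near the 21.1% of those above the median level, where 33 of the 50 lay by their mean. After quantile normalization 6 were higher and 6 lower. The count of 11 fell to 5 without AKR F1 replicate 2 and to 6 without replicate 3, and with the 3′ minus 5′ index as a covariate no partner passed.

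Ligands of the platelet-derived growth factor receptors differed most clearly among the ligands. Pdgfd, which acts on the beta receptor, was at 4.63, 4.77 and 4.78 in AKR F1 and at 6.14, 5.80 and 6.32 in DBA F1 at its brightest probe set. DBA F1 was far above AKR F1 on every array (difference -1.36, SE 0.14, limma adjusted p = 0.0022), and a dimmer probe set differed by -0.74 and passed, while the third, at 0.10, did not. Pdgfa, a ligand of the alpha receptor, rose at the dimmer of its probe sets, from 6.72, 6.56 and 6.46 in DBA F1 to 7.38, 7.68 and 7.46 in AKR F1 (difference 0.93, SE 0.11, limma adjusted p = 0.0044). The brighter Pdgfa probe set did not pass, at 0.22. The brightest Pdgfd probe set and the dimmer Pdgfa one passed in each of the 6 fits lacking 1 array. With the index as a covariate their differences were -1.42 (SE 0.26) and 0.71 (SE 0.20). The Pdgfd call at -0.74 was lost without AKR F1 replicate 2 or 3 (limma adjusted p up to 0.081). With the index that difference was -0.50 (SE 0.27). Pdgfb was higher by 0.36 at its dimmer probe set, a call lost in each of those 6 fits, and differed by 0.58 at the brighter one (limma adjusted p = 0.057). Il34, the second ligand of CSF1R, was higher by 0.46 (limma adjusted p = 0.016), a call lost without AKR F1 replicate 2 or 3.

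Among the integrin chains, Itgb1 fell at 3 of 6 probe sets, Itga4 fell at 1 of 5 and Itga9 rose at 1 of 3. Itgb1, the beta 1 chain, was at 7.82, 7.75 and 7.85 in AKR F1 and at 8.25, 8.55 and 8.51 in DBA F1 at its second probe set (log2 difference -0.63, SE 0.10, limma adjusted p = 0.010). It fell by 0.50 at the brightest and by 0.43 at the third, while the other 3 lay near the floor of the arrays. Itga4, the alpha 4 chain, was at 6.42, 5.96 and 6.67 against 7.86, 7.79 and 8.51 at the third of its probe sets (difference -1.71, SE 0.23, limma adjusted p = 0.0055). At its brightest probe set Itga4 differed by -0.04 (SE 0.11), so its probe sets spread as those of Vcam1 did. Itga9, whose product binds VCAM1 and osteopontin, rose at its brightest probe set, from 5.82, 5.42 and 5.98 in DBA F1 to 6.55, 6.65 and 6.84 in AKR F1 (difference 0.94, limma adjusted p = 0.0092). The remaining 2 probe sets of Itga9, at -0.11 and 0.15, did not pass. Itgb7, the beta 7 chain that also pairs with alpha 4, differed by 0.49 and did not pass (SE 0.15, limma adjusted p = 0.080), with the 3 AKR F1 arrays above those of DBA F1. In the fits lacking 1 array, these calls of Itgb1, Itga4 and Itga9 held in all 6, and those at the other 2 Itgb1 probe sets were lost without replicate 2 or 3 of either group.

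Cxcr4, the CXCL12 receptor, was at 10.76, 10.92 and 11.09 in AKR F1 and at 10.73, 10.83 and 10.89 in DBA F1, and differed by 0.10 (limma adjusted p = 0.59, SE 0.11). Kit, the receptor of stem cell factor, differed by 0.25 at its brightest probe set (SE 0.10, limma adjusted p = 0.16), where the 3 AKR F1 arrays lay above those of DBA F1. Its other probe set differed by -0.10 with overlapping groups (limma adjusted p = 0.70). Csf1r did not pass at any of 3 probe sets, with 0.10 at the brightest. Il7r, the interleukin 7 receptor chain, was at 6.65, 6.85 and 7.72 in AKR F1 and at 7.91, 8.09 and 8.38 in DBA F1 at its second probe set (log2 difference -1.05, SE 0.26, limma adjusted p = 0.036). At the brighter one it differed by -0.31 (SE 0.30) with overlapping groups, and the call was lost without AKR F1 replicate 1 or 2 or DBA F1 replicate 2 or 3. Cd44, Itgb3 and Itgav, which bind osteopontin or matrix, did not pass at any probe set, with differences of 0.25, 0.36 and -0.14 at their brightest.

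**Figure D4:**
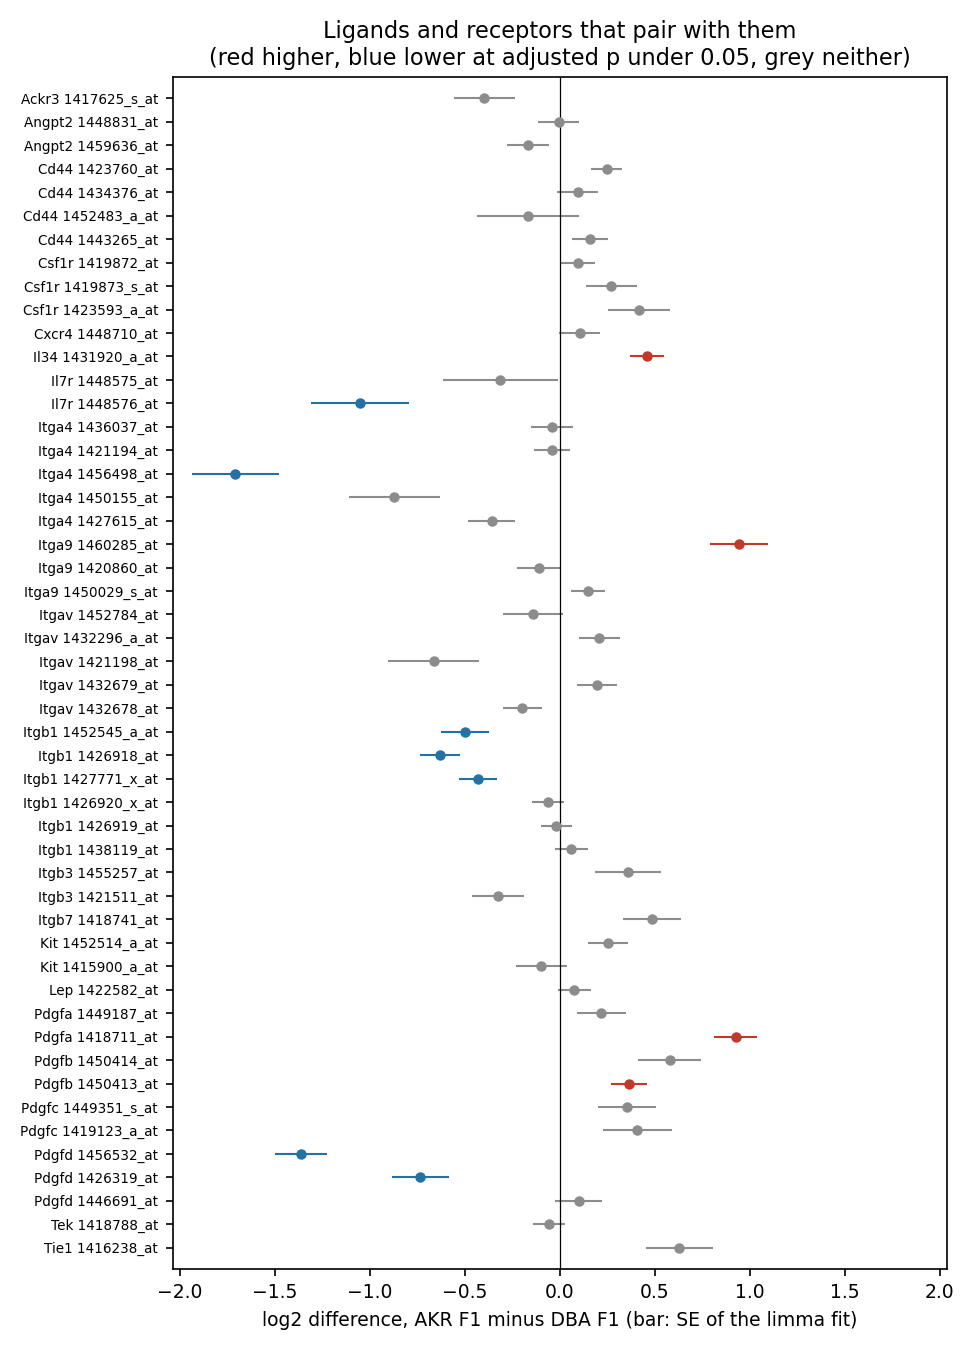
Log2 difference (AKR F1 minus DBA F1, x axis) of the 50 probe sets of 21 ligands and receptors that pair with the niche factors, with the SE of the limma fit as bars; blue points were lower, red points higher at an adjusted p under 0.05 and grey points did not pass. Itga4 at -1.71 and Pdgfd at -1.36 lie farthest to the left, and Itga9 at 0.94 and Pdgfa at 0.93 farthest to the right.

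Markers of other marrow cells were read beside the members. Tissue identity was borne out by blood cell markers: Ngp, S100a8, Mpo, Pf4 and Ptprc lay above the upper quartile of every array, while Hba-a1 had a single dim probe set at 3.69. Of 24 further stromal genes, with 56 probe sets, 7 probe sets rose and 2 fell. The share past the test was 16.1%, against 12.3% of all probe sets and 21.1% of those above the median level. The rises lay in 4 genes, most of them in Igfbp4 and the others in Tgfb1, Cebpb and Eng. Eng is counted again among the endothelial markers below. Tgfb1 was higher by 1.30 and Igfbp4 by 0.65, each at its brightest probe set, while the other Tgfb1 probe set differed by -0.16. Bst1 fell by 0.88 and Prrx1 by 0.54, each at its second probe set. At their brightest, Bst1 (-0.28) and Prrx1 (-0.23) did not pass. The transcription factors of perivascular stroma Foxc1 and Ebf3 did not pass, with differences of -0.02 and -0.07 at their brightest probe sets. Endothelial markers had 4 of 19 probe sets higher (in Stab1, Kdr, Flt4 and Eng) and none lower. That share, 21.1%, equalled the share among probe sets above the median level. Flt4 and Eng passed at their brighter probe sets only. Of the 19 differences 14 were positive and 5 negative, and Pecam1 (-0.20), Stab2 (0.02) and Vwf (0.09) did not pass. Macrophage markers had 5 of 18 higher (27.8%) and none lower. These lay in the 3 C1q chains (C1qb at 1 of 3 probe sets), Marco and Mertk. Of the 18 differences 14 were positive and 4 negative. Mrc1 (-0.40), Cd163 (-0.37) and Adgre1 (0.02) did not pass. In Mrc1 every AKR F1 array lay below every DBA F1 array. The list means also lay higher in AKR F1 for macrophages (8.74 to 9.0, against 8.56 to 8.59 in DBA F1). The same held for endothelium (7.42 to 7.51 against 7.07 to 7.30). For the further stromal genes the margin was narrow (7.85 to 7.96 against 7.54 to 7.83). Of those 24 genes, 21 did not pass at their brightest probe set. Among them Il6 was at 7.30 in AKR F1 replicate 3 and from 3.70 to 4.66 on the other arrays. Macrophages and endothelium make Vcam1 and Csf1 too, and their part in those results was not tested. Of 20 osteoblast probe sets 1 rose and 1 fell. These were Col1a1 (1.79) and Ibsp (-1.33), each at the dimmer of its probe sets. At their brighter probe sets Col1a1 (0.65) and Ibsp (-0.32) overlapped between the groups and did not pass. Ebf1, a transcription factor of both early B cells and stromal cells, fell at 3 of its 5 probe sets, by 0.86, 0.62 and 0.59. The others, at -0.22 and -0.004, did not pass, while the B cell gene Cd79a rose by 1.32. Of 18 osteoclast probe sets 1 rose and of 10 adipocyte probe sets none passed; Adipoq differed by 0.03, and 1 of the adipocyte probe sets had an unadjusted p under 0.05 in limma.

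Skeletal muscle transcripts separated the groups more widely than any of these lists. The mean of 14 muscle genes lay between 6.79 and 8.05 in AKR F1 and between 8.71 and 11.46 in DBA F1, highest in DBA F1 replicate 1, and 10 of 25 probe sets were lower in AKR F1 with none higher. The brightest probe sets of 12 of the 14 genes lay above the median of every array. With the muscle mean as a covariate no member passed, while Lepr at its second probe set was at -1.23 (SE 0.42), Angpt1 at its dimmer one at -1.50 (SE 0.33), Vcam1 at the third at -1.32 (SE 0.42) and Pdgfra at its brightest at -0.43 (SE 0.18). Since the muscle means do not overlap either, muscle RNA and genotype cannot be told apart here. The mean over the 9 member genes ranged from 8.68 to 8.83 in AKR F1 and from 8.87 to 8.96 in DBA F1.

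**Figure D5:**
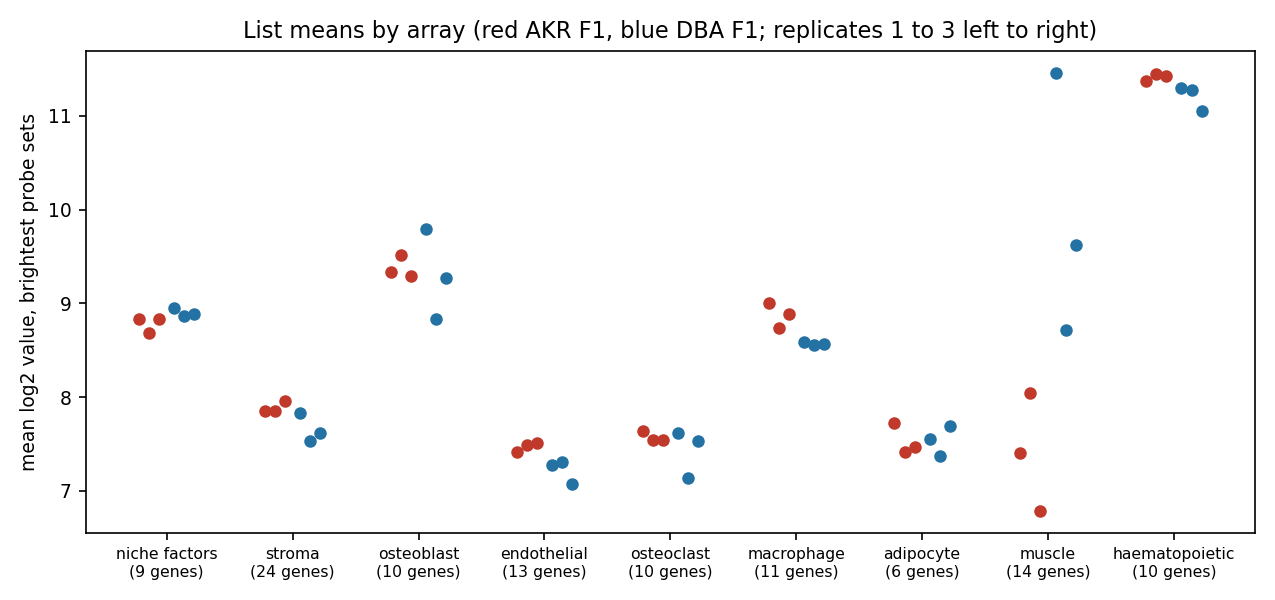
Mean log2 value of the brightest probe set of each gene, per list and array (red AKR F1, blue DBA F1, replicates 1 to 3 from left to right within a colour). The muscle list is widest, from 6.79 to 11.46, while the niche factors span 8.68 to 8.96.

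Among the members' brightest probe sets, Pdgfrb (1.06) and Angpt1 (0.85) had the widest range over the 6 arrays. By the root mean square distance of centred log2 values over 6 arrays, the closest named probe sets to Pdgfrb were those of Mast3 (0.043), Tmem115 (0.062) and Fmo5 (0.065), which shared its low value in DBA F1 replicate 3. The closest to Angpt1 were Ttc13 (0.041), N4bp2 (0.046) and Ctnna1 (0.054), and none of these 3 passed the test. These were picked from 19619 single-symbol probe sets above the median level, so close matches are a description only.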

How the data were processed

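Total RNA from snap-frozen marrow was extracted with Trizol, labelled with biotin and hybridised to Affymetrix arrays, 1 array each, as the labels' protocols describe. Log2 values of 45101 probe sets were deposited. They were taken as already normalized between arrays, since their upper quartiles lay close together (7.34 to 7.43). RMA and MAS5 are both named, without role, in the submitters' processing notes, and no detection calls were used here. No test used the 64 control probe sets. Of the rest, 34945 have 1 symbol, 932 several and 9160 none. No per-sample column was left unused.

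limma 3.58.1 in R 4.3.3 was fitted over all 6 arrays (4 residual degrees of freedom), two-sided, AKR F1 minus DBA F1. It was tested on simulated data with independent noise at each probe set and array. Those data held no array-wide shift such as 3′ bias, so they cannot bear on the confounding described above. The number of arrays limits the precision. The members, gene lists and tests were chosen with earlier results of these data known. Named were all members, partners past the test, the 6 brightest other partners, Itgb7, and the closest patterns to 2 members. From the other lists some genes were picked, both past the test and not, without a fixed number. Alternatives covered normalization, filtering, variance model, array weights, a replicate block, each array left out, thresholds, 1 probe set per gene and control covariates. The muscle covariate was added after seeing the data. Same-numbered arrays of the 2 groups correlated in their deviations from the group means at 0.053, 0.017 and 0.084. Differently numbered arrays correlated at -0.123 to 0.046. All these values were small, and the numbers were not taken as pairs in the main fit.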

Additional observations from a re-analysis of the deposited data

How the results depend on the processing

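The count of member probe sets past the test (8) was 7 to 10 under quantile normalization, median centring, the filter on dim probe sets, array weights, the replicate block, a robust fit with a variance trend and a threshold of 0.10. It became 1 at a threshold of 0.01, 2 with 1 probe set per gene (Pdgfra and Il7), and 0 with the 3′ minus 5′ index, the hybridization controls or the muscle mean as a covariate, the last chosen after seeing the data. Leaving out 1 array gave 2 to 8. The count over all probe sets (5541) became 1214 and 8489 at thresholds of 0.01 and 0.10, 2771 with 1 probe set per gene, 53, 12 and 102 with those 3 covariates, and 1683 to 5581 with 1 array left out. The partner count (11) became 4 and 17 at those thresholds, 6 with 1 probe set per gene, 0 with each covariate, and 5 to 14 with 1 array left out. With the replicate block 10 members passed, among them Kitl at its second probe set (adjusted p = 0.027) and Angpt1 at its brighter one (adjusted p = 0.028), both in limma, and 5321 probe sets and 11 partner probe sets in all. Averaged over all probe sets of the gene, Lepr (-0.54), Angpt1 (-0.88) and Vcam1 (-0.63) passed as genes, which they did not by their brightest probe set. The 8 member probe sets past the test in the unaltered fit kept their sign in every one of these fits that held them. The further calls under the block did not: Kitl at its second probe set was at 0.09 with the 3′ minus 5′ index as a covariate, and Angpt1 at its brighter one at 0.03 with the hybridization controls. Without raw intensities, signal over background was not analysed here. The cause of these changes was not tested.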
